A study of Mus musculus with 2 samples.

Results

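The cells described here were the macrophages of mouse dorsal skin that carried few MHC class II transcripts. They were found by a fixed rule in 2 single-cell RNA libraries, and 226 of the 19578 kept cells met it, 127 of 11399 in Ctrl and 99 of 8179 in AD. A cell was kept with 200 to 6000 detected genes and at most 10% of its transcript counts (unique molecular identifiers, UMIs) from mitochondrial genes. It was called a macrophage with at least 3 UMIs of C1qa, C1qb and C1qc together, at least 1 UMI of Ptprc or Csf1r, and none of Pdgfra, Cd3e, Cd3d or Cd3g. It was placed in the MHC class II low class when H2-Aa, H2-Ab1, H2-Eb1 and Cd74 together made up under 0.5% of its UMIs, and otherwise in the high class.

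Both libraries came from female C57BL/6J mice 7 weeks old whose back hair was taken off with depilatory cream 24 h before the first application. Ctrl skin received ethanol without an active agent each day for 10 days on an area of 2 cm by 2 cm. AD skin received 4.5 nmol of MC903 (calcipotriol, a vitamin D analogue whose repeated use on mouse skin is a model of atopic dermatitis) in ethanol on the same schedule, and tissue was taken on day 10. Each condition was 1 library, and the number of mice behind a library is not given in the sources used here. No test between the conditions was therefore possible, and the 95% intervals printed below cover counting error only, not differences between animals. Depilation, ethanol and digestion with collagenase were shared by both libraries.

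Dermal macrophages take up dying cells, debris and proteins, and many of them sit along vessels and nerves. Cells with little MHC class II are known in skin as a largely resident and scavenging population, with the mannose receptor Mrc1, the haemoglobin receptor Cd163 and the folate receptor Folr2 among their genes. Macrophages also sense damage through NF-kB, a transcription factor that switches on chemokines and cytokines of the IL-1 and TNF type, and respond to interferon by switching on a set of antiviral genes. Interleukin 4 and interleukin 13, cytokines of atopic inflammation, act through STAT6.

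The marker genes fitted macrophages. Levels below are counts per 1000000 UMIs (CPM), for which each gene's UMIs were added up across a library's members and scaled to the total of those members. Ratios are log2 of AD over Ctrl after 1 CPM was added to both. The members held 648584 UMIs in Ctrl and 716000 in AD, with a median of 3998 and 5757 UMIs and 1860 and 2149 genes per cell. C1qa, a chain of the complement component C1q, stood at 3494 CPM in Ctrl and 2310.1 in AD, and Csf1r, the receptor for the macrophage growth factor CSF1, at 1042 and 628 CPM. Both genes were part of the rule. Of the markers that were not, Mrc1 stood at 2293 CPM in Ctrl and 2239 in AD, against 38.4 and 19.1 CPM over all other kept cells. Pf4, a CXC chemokine found in platelets and resident macrophages, stood at 2309.7 and 2169 CPM, with 17.3% of its AD UMIs in 1 cell. Cd163 stood at 1005 and 673 CPM against 11.8 and 2.86 CPM in the other cells. Adgre1, which encodes F4/80, was at 384 CPM in Ctrl and 168 in AD, a ratio of −1.19 that was −0.81 after thinning. The members held 27.0% of all Mrc1 UMIs of the kept cells in Ctrl and 57.9% in AD, and the high class held 38.5% and 10.9%. Summed over 14 macrophage markers, the low class stood at 18503 CPM in Ctrl and 16714 in AD, and the high class at 18487 and 10136 CPM. In Ctrl these genes therefore marked macrophages of both classes.

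Markers of other cells were present in different amounts in the 2 libraries. The summed fibroblast markers stood at 2157 CPM in Ctrl members and 105 CPM in AD members, against 33270.3 and 9406 CPM over all other kept cells. Summed keratinocyte markers stood at 2885 and 37.7 CPM, against 6689.8 and 1012 CPM in those cells. Each of the 6 compared fibroblast markers and the 10 compared keratinocyte markers was at least 2-fold lower in AD members, where 13.2% of all compared genes were. Col1a1 was the most abundant fibroblast gene in Ctrl members and Krt10 the most abundant keratinocyte gene. In AD members Col6a3, Krt1 and Dsp were at 0, beside Pdgfra, which the rule set to 0 in both libraries. In 6 Ctrl members (4.72%), and in 0 of 99 AD members (exact upper limit 3.66%), markers of fibroblasts, keratinocytes, endothelium and pericytes together passed 1% of the cell's UMIs. The part of these transcripts in the results below was not tested, other than by leaving out those 6 cells. B cell genes Cd79a, Ms4a1, Igkc and Jchain were at 0 in both libraries, as were the T cell gene Trac and the neutrophil gene Ly6g.

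The low class was a larger share of macrophages in AD. It was 127 of 346 macrophages in Ctrl (36.7%, exact 95% interval 31.6 to 42.0) and 99 of 139 in AD (71.2%, 62.9 to 78.6). As a share of all kept cells the low class was 1.11% in Ctrl (0.930 to 1.32) and 1.21% in AD (0.985 to 1.47), intervals that overlap. With the MHC class II limit at 1% these shares were 1.42% and 1.31%, so their order turned. Macrophages of both classes together were 3.04% of kept Ctrl cells (2.73 to 3.37) and 1.70% of kept AD cells (1.43 to 2.00). The number of high cells was 219 in Ctrl and 40 in AD. The deposited matrices held cells from a digested tissue, and a share of cells in such a suspension need not be the share in the skin.

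The members were chosen by their UMIs of C1q, Csf1r and Ptprc and their share of MHC class II UMIs, so these values are given as a description. The median member had a lower MHC class II share in AD, with 0.0845% in Ctrl and 0.0176% in AD. Summed over the members, the 4 genes stayed within 2-fold, with ratios of −0.01 for H2-Ab1, −0.15 for H2-Aa, −0.62 for Cd74 and −0.63 for H2-Eb1. No MHC class II UMI was found in 23 Ctrl members (18.1%) and 43 AD members (43.4%). Just under the limit, from 0.4 to 0.5%, there were 8 Ctrl cells with 2035 CPM of Mrc1, 1475 CPM of Folr2 and 0 of Il1b. Just above it, from 0.5 to 0.6%, there were 5 Ctrl cells with 3018, 1341 and 527 CPM of these genes. In AD there were 3 cells just under the limit, at 1225 CPM of Mrc1, 0 of Folr2 and 1744 CPM of Il1b, and 2 cells just above it, at 1338, 41.8 and 0 CPM. Few cells of either library therefore lay from 0.4 to 0.6%, but 35 Ctrl and 8 AD cells lay from 0.5 to 1%. With the limit at 0.25% the low share was 29.2% of Ctrl and 64.7% of AD macrophages, and at 1% it was 46.8% and 77.0%.

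**Figure D1:**
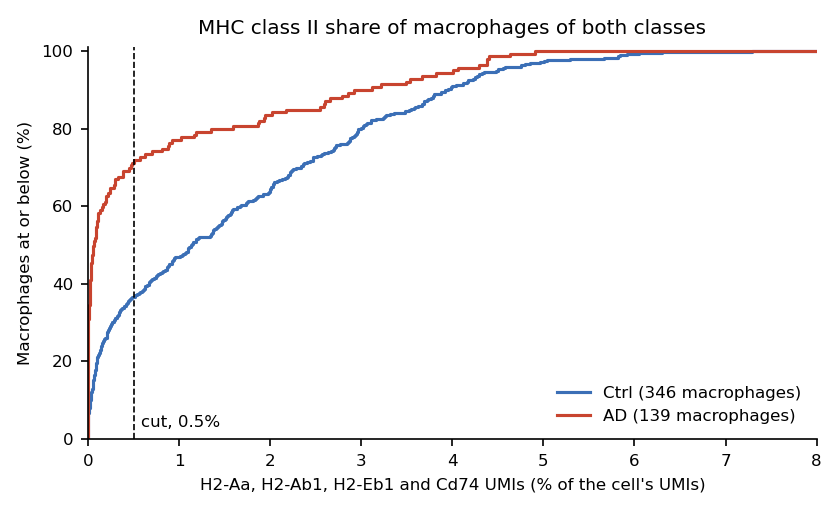
Share of a cell's UMIs from H2-Aa, H2-Ab1, H2-Eb1 and Cd74 (x axis, %) against the cumulative share of macrophages at or below it (y axis, %), with 1 line for the 346 Ctrl macrophages and 1 for the 139 AD macrophages. The dashed line at 0.5% divides the classes, and the lines cross it at 36.7% and 71.2%.

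Across the transcriptome of the members, 3905 genes reached 50 CPM in at least 1 library. Of these 331 (8.48%) were at least 2-fold higher in AD and 516 (13.2%) at least 2-fold lower, and the median ratio was −0.08. When the cell with most UMIs of a gene was left out in each library, a choice made after the data were seen, 322 of the 331 and 492 of the 516 were still past 2-fold. Without the 6 Ctrl members that carried other cells' markers the counts were 335 and 502. The counts depended on depth and on the minimum level, with 688 higher and 763 lower in cells thinned to 1000 UMIs, 207 and 267 at a minimum of 100 CPM, and 2131 and 4081 with no minimum. The genes were then read by role, from lists and a rule chosen with earlier results of these data known. The lists overlap, so their counts are not separate results. Il1b, Cxcl2, Ptgs2, Clec4e and Fn1, for example, each count in more than 1 list.

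**Figure D2:**
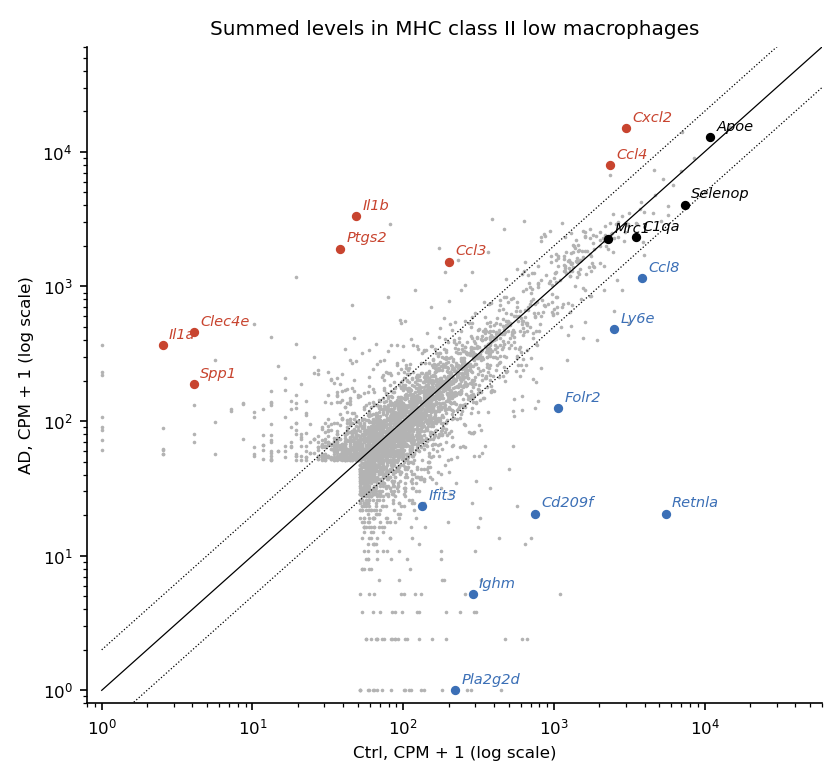
Level of each compared gene in Ctrl members (x axis) and AD members (y axis), in CPM + 1 on log axes, with 1 point per gene and dotted lines at 2-fold. Il1b, Ptgs2 and Clec4e lie far above the upper line, Retnla, Cd209f and Folr2 far below the lower line, and Mrc1, Apoe and Selenop between the lines.

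Genes of the NF-kB feedback and inflammatory response were the group with most members higher in AD. Of 23 compared, 16 were at least 2-fold higher and 0 were lower, with a median ratio of 2.32 against −0.08 over all compared genes, of which 8.48% were higher. Il1b, the pro-inflammatory cytokine interleukin 1 beta, stood at 47.8 CPM in Ctrl and 3328 in AD (ratio 6.09, 5.61 to 6.68). It was detected in 8 of 127 Ctrl members and 47 of 99 AD members. After each cell was thinned to 1000 UMIs, which kept 122 Ctrl and 94 AD members, it was detected in 2.46% (0.51 to 7.02) and 43.6% (33.4 to 54.2). In thinned fibroblasts (kept cells with Pdgfra and no Ptprc or C1q UMI, with a median of 9046 UMIs in Ctrl and 6866 in AD before thinning), which are not a known source of it, 0.235% and 1.03% had a UMI. Over all other kept cells Il1b stood at 116 and 262 CPM. The members held 0.254% of the Il1b UMIs of kept Ctrl cells (0.173 to 0.361) and 12.99% of those of kept AD cells (12.5 to 13.5).

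Clec4e, the receptor Mincle for microbial glycolipids and dead cells, was found in 2 of 127 Ctrl members (2 UMIs, 3.08 CPM) and 52 of 99 AD members (325 UMIs, 454 CPM). Its ratio was 6.80, with an interval of 5.34 to 10.25. Clec4d, a lectin receptor encoded beside Clec4e that forms a complex with it, stood at 24.7 and 299 CPM. Ptgs2, the inducible cyclooxygenase that starts prostaglandin synthesis, stood at 37.0 CPM in Ctrl and 1908 in AD, and was found in 1.64% and 33.0% of thinned cells, against 15.1% and 18.1% of thinned fibroblasts, which can express it. Il1a, which encodes interleukin 1 alpha, stood at 1.54 CPM in Ctrl (1 UMI) and 365 in AD (ratio interval 5.39 to 13.19), and Tnf at 242 and 932 CPM. Nfkbia, the inhibitor that NF-kB induces to shut itself off, stood at 2339 CPM in Ctrl and 6730.4 in AD. Saa3, an acute phase serum amyloid, had no UMI in Ctrl members and stood at 218 CPM in AD, at least 47.1-fold higher when the Ctrl level was set to the limit of 3 UMIs over all its members. Saa3 also stood at 198 CPM in the other AD cells, and 32.1% of its UMIs in members were in 1 cell. Slpi, a protease inhibitor, was at 0 in Ctrl and at 60.1 CPM in AD, but 67.4% of its UMIs were in 1 cell.

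Chemokines did not all go the same way. Of 17 compared CC and CXC ligands, 10 were at least 2-fold higher in AD and 1 was lower, with a median of 1.42 (all compared genes 8.48% and 13.2%). Among the higher ligands, Ccl5 (12.3 and 165 CPM) had a ratio of 3.64 that turned to −0.61 over all deposited barcodes. Cxcl2, which draws neutrophils, stood at 2999 CPM in Ctrl and 14934 in AD (ratio 2.32, 2.25 to 2.39), and the median member had 570 and 9859 CPM. After thinning it was detected in 46.7% of Ctrl cells (37.6 to 56.0) and 81.9% of AD cells (72.6 to 89.1). AD members made up 1.21% of kept AD cells and held 25.5% of their Cxcl2 UMIs. Ccl4, a CC chemokine that draws leukocytes, stood at 2345 and 7993 CPM, and Ccl3, its close relative, at 200.4 and 1524 CPM. Ccl2, which draws monocytes through CCR2, stood at 823 CPM in Ctrl and 2325 in AD, and the other kept cells stood at 287 and 1257 CPM.

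Ccl8, the ligand that was lower, stood at 3827 CPM in Ctrl and 1154 in AD (ratio −1.73, −1.85 to −1.62). It encodes a chemokine that acts on CCR8 in the mouse. It was found in 105 of 127 and 36 of 99 members, and the median member had 2051 CPM in Ctrl and 0 in AD. Cxcl3, a neighbour of Cxcl2 with the same receptor, was at 0 in Ctrl and at 89.4 CPM in AD, at least 19.3-fold higher, with 46.9% of its UMIs in 1 cell. Cxcl13, which draws B cells, stood at 9.25 and 521 CPM, and 93.8% of its AD UMIs were in 1 cell. Of 4 compared chemokine receptors, a number too small to set against the 8.48% and 13.2% of all genes, Ccr1, Ccrl2 and Cxcr4 were higher and Ccr2 was lower. Ccr1, a receptor of Ccl3, stood at 26.2 and 239 CPM, and Ccrl2, which binds chemerin without signalling, at 119 and 939.9 CPM. Ccr2, the receptor that brings monocytes into tissue, stood at 57.0 CPM in Ctrl (37 UMIs) and 8.38 CPM in AD (6 UMIs).

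Among 18 compared cytokines and growth factors, 10 were higher in AD and 4 lower, with a median of 2.06. For this count and those of the receptors and JAK and STAT genes that follow, the shares over all compared genes were 8.48% higher and 13.2% lower. Osm, which encodes oncostatin M, stood at 18.5 CPM in Ctrl and 373 in AD. Hbegf, a growth factor for keratinocytes that acts on the EGF receptor, stood at 44.7 and 728 CPM. Grn, which encodes the lysosomal and secreted protein progranulin, was among the lower genes at 1756 and 851 CPM, a ratio of −1.05 that was −0.97 after thinning and −0.79 over all deposited barcodes. Of 21 compared cytokine receptors, 7 were higher and 0 lower. They included Csf2rb, the shared chain of the receptors for GM-CSF, IL-3 and IL-5, at 44.7 and 176 CPM (ratio 1.95, 0.66 after thinning), and Tnfrsf1b, which encodes TNF receptor 2, at 89.4 and 259.8 CPM. Among 12 JAK kinases, STATs and feedback genes, Socs3 (199 and 774 CPM) and Jak2 (35.5 and 96.4 CPM, a ratio of 1.42 that was 0.94 after thinning) were higher in AD and 2 were lower, among them Stat2 (114 and 30.7 CPM). The other 8, Stat3 among them at 262 and 313 CPM, stayed within 2-fold.

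The promoters of 2 inflammatory genes are shown because they carry the letters of an NF-kB type site, GGG and TTTCC with any 2 bases between them, searched on both strands with overlaps counted. The sequences are the 250 bases before the start site of the RefSeq gene on GRCm38.p6, written 5′ to 3′ along the gene's strand, with matches in capitals. Cxcl2 lies on the plus strand and the window is chr5:90903649-90903898, with matches that begin 97 and 78 bases before the start. Nfkbia lies on the minus strand and the window is chr12:55492648-55492897, with a match that begins 29 bases before the start.
Cxcl2: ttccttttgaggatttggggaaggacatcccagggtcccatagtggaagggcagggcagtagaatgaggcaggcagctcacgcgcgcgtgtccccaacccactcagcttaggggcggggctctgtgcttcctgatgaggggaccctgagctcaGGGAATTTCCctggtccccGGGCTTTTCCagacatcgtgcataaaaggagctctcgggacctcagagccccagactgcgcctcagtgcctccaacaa
Nfkbia: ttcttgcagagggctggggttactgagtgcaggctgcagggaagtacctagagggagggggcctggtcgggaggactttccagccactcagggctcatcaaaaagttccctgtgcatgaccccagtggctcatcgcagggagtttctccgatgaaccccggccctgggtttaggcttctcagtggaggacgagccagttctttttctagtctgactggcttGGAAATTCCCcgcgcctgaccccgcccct
In windows from 250 bases before to 50 bases after the start, 5 of the 23 available promoters of the inflammatory list held such a match (21.7%). These promoters were taken whatever the level of the gene. The matches were in Cxcl2, Nfkb2, Nfkbia, Rel and Tnfaip3, of which only Cxcl2 and Nfkbia were among the 16 genes higher in AD. The share was 1.89% of all 27025 promoters and 2.48% of those of 3146 compared genes. Such a match is a string of letters and not a measured binding site.

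Interferon-inducible genes were mostly lower in AD. Of 29 compared, 19 were at least 2-fold lower and 1, Gbp5, was higher, with a median of −1.38. Over all compared genes 13.2% were lower and 8.48% higher. Ly6e, a membrane protein that affects virus entry, stood at 2519 CPM in Ctrl and 483 in AD (ratio −2.38, −2.55 to −2.21). Ifit3, an antiviral RNA response protein, stood at 133 and 22.3 CPM. The GTPase gene Mx1 stood at 80.2 and 12.6 CPM, and Bst2, which encodes the virus tether tetherin, at 316 and 54.5 CPM. Iigp1, a GTPase induced by interferon gamma, stood at 177 and 30.7 CPM. Ifi27l2a stood at 1616 CPM in Ctrl and 547 in AD, where 1 cell held 41.3% of its UMIs. Ifitm3 stood at 991 and 608 CPM and Rsad2 at 1508 and 806 CPM, both within 2-fold. Lower levels were not particular to the members. The summed list stood at 11835 and 5278 CPM in members, 10620 and 3821 in the high class, and 2831 and 3394 over all other kept cells. Thinned fibroblasts had a UMI of Ly6e in 26.6% of Ctrl and 11.2% of AD cells, of Bst2 in 11.1% and 2.88%, and of Ifit3 in 2.37% and 0.60%. In MHC class I presentation, 0 of 18 compared genes were higher and 2 lower, a share near the 13.2% of all compared genes. Psmb9, an interferon-inducible proteasome subunit, was among them at 91.0 and 32.1 CPM.

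The promoter of Ifit3 is shown because it carries GAAA and GAAA with any 2 bases between them on either strand, the letters of a site of the type read by interferon-induced factors. It is on the plus strand of GRCm38.p6 at chr19:34583279-34583528, and the matches, in capitals, begin 156 and 122 bases before the start site.
Ifit3: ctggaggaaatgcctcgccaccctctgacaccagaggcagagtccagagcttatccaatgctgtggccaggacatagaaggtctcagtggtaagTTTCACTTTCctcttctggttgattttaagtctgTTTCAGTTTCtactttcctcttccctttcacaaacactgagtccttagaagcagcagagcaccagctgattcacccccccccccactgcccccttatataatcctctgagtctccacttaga
Of 31 promoters of the interferon-inducible list, 19 held such a match (61.3%), against 3.99% of all promoters and 4.58% of those of compared genes. The list was made of known interferon targets, and a match does not say which factor was bound.

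Genes of resident and perivascular macrophages were lower or within 2-fold. Of 23 compared, 0 were at least 2-fold higher in AD and 16 were lower, with a median of −2.02, where 13.2% of all compared genes were lower. Mrc1, Pf4, Cd163, Selenop and Lyve1 stayed within 2-fold, and the ratio of Mrc1 was −0.03 (−0.14 to 0.07). Selenop, a selenium carrier, stood at 7379 CPM in Ctrl and 4047 in AD. Lyve1, a hyaluronan receptor of perivascular macrophages, stood at 375 and 221 CPM, a ratio of −0.76 that was 0.38 after thinning. F13a1, a subunit of coagulation factor XIII, stood at 2603 and 1119 CPM. Maf, a transcription factor of resident macrophages, stood at 1549.5 and 413 CPM.

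Folr2 stood at 1062 CPM in Ctrl and 124 in AD (ratio −3.09, −3.43 to −2.78). It was found in 103 of 127 and 32 of 99 members, and in 61.5% (52.2 to 70.1) and 6.38% (2.38 to 13.4) of thinned cells. Lectins of the DC-SIGN family were lower as well. Cd209f stood at 752 CPM in Ctrl and 19.6 in AD, Cd209g at 429 and 12.6 CPM, Cd209d at 530.4 and 64.2 CPM, and Cd209b at 304 and 34.9 CPM. These genes lie together on the genome and are similar in sequence, so reads of 1 could in part be assigned to another or lost. Siglec1, the sialic acid receptor CD169, stood at 55.5 and 8.38 CPM. Fcna, a ficolin that starts the lectin pathway of complement, stood at 362 and 116 CPM, a ratio of −1.64 that was −0.80 after thinning.

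**Figure D3:**
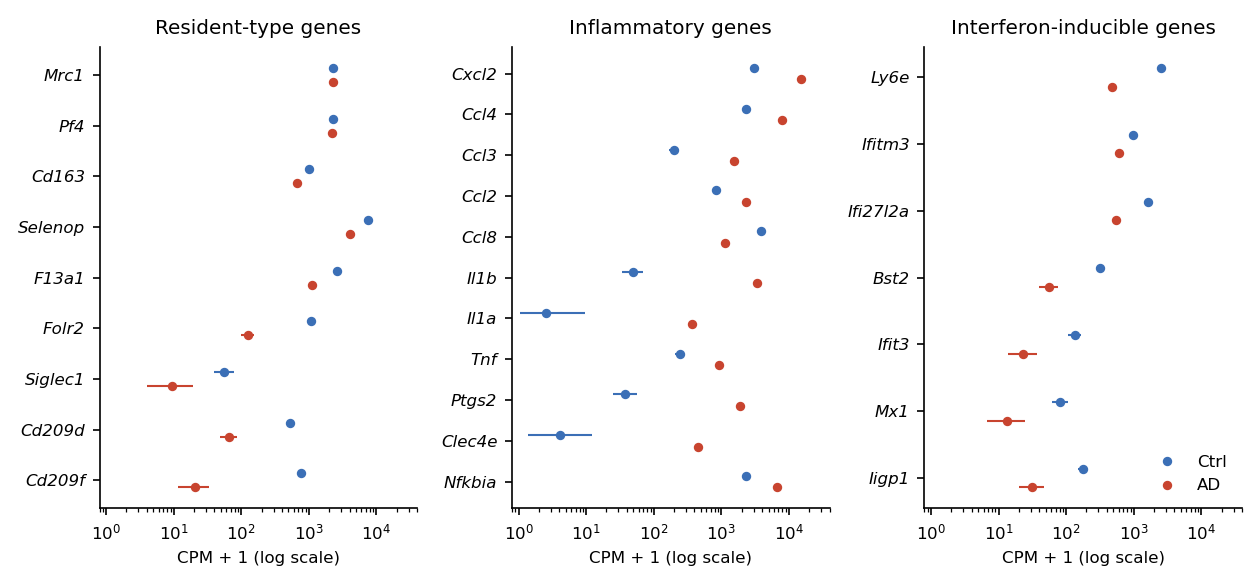
Level in Ctrl and AD members of genes in 3 panels, resident-type, inflammatory and interferon-inducible, in CPM + 1 on a log axis. Points are sums over the cells of 1 library, and bars are Poisson 95% intervals of counting error. In the middle panel every gene but Ccl8 is higher in AD, and in the right panel each gene is lower, Ifitm3 by under 2-fold.

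Alternative activation genes, a list drawn up around those that IL-4 and IL-13 induce in macrophages, went both ways, with more higher in AD than lower. Of 16 compared, 7 were higher in AD and 2 were lower, with a median of −0.10, and the lower share was near the 13.2% of all compared genes (8.48% were higher). Retnla, a secreted resistin-like protein, stood at 5524 CPM in Ctrl and 19.6 in AD (ratio −8.07, −9.01 to −7.39). It was found in 67 of 127 Ctrl members, with a median of 321 CPM and a highest cell of 40765 CPM, and in 5 of 99 AD members. In thinned cells the shares were 45.1% (36.1 to 54.3) and 2.13% (0.259 to 7.48). In Ctrl thinned cells Folr2 was found in 83.6% of cells with Retnla and in 43.3% of cells without it.

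Among the 7 higher genes, Chil3, the secreted lectin Ym1, stood at 12.3 and 422 CPM and was found in 1.57% and 13.1% of members, with 37.4% of its AD UMIs in 1 cell. Tgm2, a transglutaminase, stood at 6.17 and 119 CPM. Clec10a, a galactose-type lectin of the same list that stayed within 2-fold, stood at 984 and 622 CPM.

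The promoter of Retnla is shown because it is the gene of this group with the lowest ratio and carries TTC and GAA with any 4 bases between them, the letters of a site of the type STAT6 reads. It is on the plus strand of GRCm38.p6 at chr16:48842359-48842608, and the match, in capitals, begins 145 bases before the start site.
Retnla: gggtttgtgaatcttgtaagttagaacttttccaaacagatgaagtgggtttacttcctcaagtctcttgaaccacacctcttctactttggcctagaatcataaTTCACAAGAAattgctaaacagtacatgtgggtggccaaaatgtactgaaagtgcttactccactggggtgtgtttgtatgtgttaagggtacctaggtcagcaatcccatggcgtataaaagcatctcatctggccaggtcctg
Of 20 promoters of the alternative activation list, 4 held such a match (20.0%), against 8.01% of all promoters and 6.45% of those of compared genes.

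Markers of monocyte-derived cells gave no common direction. Of 9 compared, 4 were higher in AD (Clec4e, Chil3, S100a4 and Fn1) and 2 lower (Ccr2 and Plac8), with a median of 0.34, where all compared genes gave 8.48% and 13.2%. S100a4, a calcium-binding protein of motile cells, stood at 257 CPM in Ctrl and 1028 in AD. Outside that list, Rgs1, which dampens chemokine receptor signals, stood at 80.2 and 2901 CPM, and Jaml, an adhesion molecule of leukocytes that cross epithelium, at 4.63 (3 UMIs) and 282 CPM (ratio 5.65, 4.36 to 8.22). Ighm was found in 75 of 127 Ctrl members and 2 of 99 AD members, at 288 and 4.19 CPM (ratio −5.80, −8.40 to −4.54), beside the B cell genes at 0 given above.

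The counts for complement, scavenging and the matrix are likewise to be read against 8.48% higher and 13.2% lower over all compared genes. Among 16 complement genes 2 were higher and 6 lower, with a median of −0.44. Among the lower ones, C4b had a ratio of −1.15 that was −0.60 after thinning and −0.63 as a mean of cells. Cfb, the protease of the alternative pathway, stood at 66.3 and 12.6 CPM and C3 at 43.2 and 284 CPM. Cfd stood at 1.54 and 55.9 CPM with 85.0% of its AD UMIs in 1 cell. Of 27 scavenger, lectin and engulfment receptors, 4 were higher and 10 lower (median −0.66). Of 7 Fc receptors, 0 were higher and 2 lower (median 0.13), Fcrls at 185 and 5.59 CPM and Fcgrt at 728 and 204 CPM. Of 18 matrix proteases and inhibitors, 8 were higher and 4 lower (median 0.90). Thbs1, the matrix protein thrombospondin 1, stood at 18.5 CPM in Ctrl and 1183 in AD, and Plaur, the urokinase receptor, at 13.9 and 257 CPM. Thbs1 was found in 2.46% and 21.3% of thinned members, against 13.2% and 48.1% of thinned fibroblasts. Mmp12, the macrophage elastase, was at 0 in Ctrl and at 106 CPM in AD, at least 22.9-fold higher, and 1 cell held as many of its UMIs as the other members together.

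The same shares over all compared genes apply to the counts of lipid, lysosomal, energy and iron genes. Apoe, which carries lipid out of macrophages, stood at 10912 CPM in Ctrl and 12851 in AD. Pla2g7, a lipase that inactivates platelet-activating factor, stood at 188 and 1269.5 CPM, and Gpnmb, a glycoprotein of lipid-laden macrophages, at 15.4 and 209 CPM. Over 23 lipid handling genes 5 were higher and 5 lower, with a median of −0.05. Over 29 lysosomal genes 3 were higher and 5 lower (median −0.14). Among the higher ones, Atp6v0d2 had a ratio of 2.00 that turned to −0.20 after thinning. Over 24 genes of oxidative phosphorylation and glycolysis, 2 were higher, Ldha and Pkm (ratio 1.18, 0.85 after thinning), and 0 lower (median 0.20). Of 14 iron and haem genes 2 were higher and 4 lower (median −0.38). Fth1, the heavy chain of the iron store ferritin, stood at 7023 and 14085 CPM. Its ratio of 1.00 lay at the limit of 2-fold and under it in several settings (0.61 as a mean of cells, 0.69 thinned), and that of the other higher gene, Slc11a2, was 1.22 and went to 0.68 with the MHC class II limit at 1%. Slc7a11, the cystine importer used against oxidative stress, was at 0 in Ctrl and at 229 CPM in AD, at least 49.5-fold higher. Mt1, a metallothionein that binds zinc, stood at 871 and 2378 CPM, and of 4 metallothionein and zinc export genes 2 were higher and 1 lower (median 1.09). Summed over that list, members stood at 1477 and 3258 CPM and all other kept cells at 2304 and 11899 CPM.

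Among 30 immediate early and heat shock genes, which tissue digestion is known to induce, 1 was higher (Ier3, 467 and 2649 CPM) and 12 were lower, with a median of −0.79. All compared genes gave 8.48% higher and 13.2% lower, also for the eicosanoid count that follows. Hspa1b, an inducible heat shock protein, stood at 3129.9 and 531 CPM. In the eicosanoid pathway 2 of 11 were higher, Ptgs2 and the prostaglandin E synthase gene Ptges, and 4 lower (median −0.24). Hpgd, the enzyme that breaks down prostaglandins, stood at 131 CPM in Ctrl and 4.19 in AD (3 UMIs, ratio −4.67, −7.27 to −3.37). Pla2g2d, a secreted phospholipase of resting myeloid cells, stood at 220.5 CPM in Ctrl, in 29.1% of members, and at 0 in AD, at least 52.6-fold lower.

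The counts of the remaining lists are set against 8.48% higher and 13.2% lower over all compared genes. Of 14 macrophage markers, Cd14 was higher and Adgre1 was lower (median −0.38), shares near or under those. Of 20 macrophage transcription factors, 6 were higher and 2 lower (median 0.58), with Cebpb, a driver of inflammatory genes, at 857 and 2432 CPM. Of 7 co-stimulation genes, 3 were higher and 0 lower (median 0.39), with Cd274, which encodes the checkpoint ligand PD-L1, at 52.4 and 318 CPM. Havcr2, the checkpoint receptor TIM-3, was at 0 in Ctrl and at 71.2 CPM in AD, at least 15.4-fold higher. Of 5 other MHC class II pathway genes none passed 2-fold (median 0.34). Among 10 cell cycle genes 1, Cdkn1a, was higher and 6 were lower (median −1.90), and Cdkn1a encodes the cycle inhibitor p21 (298 and 633 CPM). The ratio of Cdkn1a was 1.09, and 0.95 with at least 10 C1q UMIs required. Under that requirement the ratio of Cenpf, with 72.1% of its Ctrl UMIs in 1 cell, went from −4.81 to −0.12, that of Ccnd1 from −2.63 to −2.49, and Stmn1, Top2a and Ube2c were higher in AD (0.20, 0.76 and 1.02). The proliferation gene Mki67, named after its values were seen, was found in 3.28% of thinned Ctrl cells (0.900 to 8.18) and 5.32% of thinned AD cells (1.75 to 11.98). Since AD skin received a vitamin D analogue, a list of vitamin D genes was read too, with targets, receptor partners and carriers. Of 6 compared, 4 were higher (Spp1, Hbegf, Cd14 and Vdr) and 2 lower (Rxra and Pdia3), with a median of 2.39. The first 3 of these are in other lists too, and the target Cyp24a1 did not reach 50 CPM in either library. Whether the analogue acted on these cells was not tested. Cd14, a co-receptor for lipopolysaccharide, stood at 171 and 1941 CPM, and Vdr, the vitamin D receptor, at 37.0 CPM in 6.30% of Ctrl members and 92.2 CPM in 29.3% of AD members, a ratio of 1.29 that turned to −0.23 over all deposited barcodes. Spp1, also of this list, had 44.0% of its AD UMIs in 1 cell.

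Detection was then compared at equal depth, since the median AD member had more UMIs. Cd163, within 2-fold by its level, was found in 50.8% of thinned Ctrl cells (41.62 to 59.98) and 26.6% of thinned AD cells (18.0 to 36.7), and F13a1 in 86.1% (78.6 to 91.7) and 58.5% (47.9 to 68.6). For Mrc1 the shares were 82.8% (74.9 to 89.0) and 78.7% (69.1 to 86.5), which overlap. Cd14 was found in 17.2% (11.0 to 25.1) and 59.6% (49.0 to 69.6), and Osm in 0.82% (0.0208 to 4.48) and 20.2% (12.6 to 29.8). Ccl8 was found in 68.0% and 28.7%, and Ccl2 in 32.0% and 54.3%. Thinned fibroblasts had a UMI of Ccl2 in 15.01% of Ctrl and 36.6% of AD cells, and of Ccl8 in 3.15% and 1.76%. For Cxcl2 the fibroblast shares were 1.88% and 4.85%, for Retnla 0.980% and 0, for Folr2 0.118% and 0.0215%, and for Mrc1 0.255% and 0.301%.

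**Figure D4:**
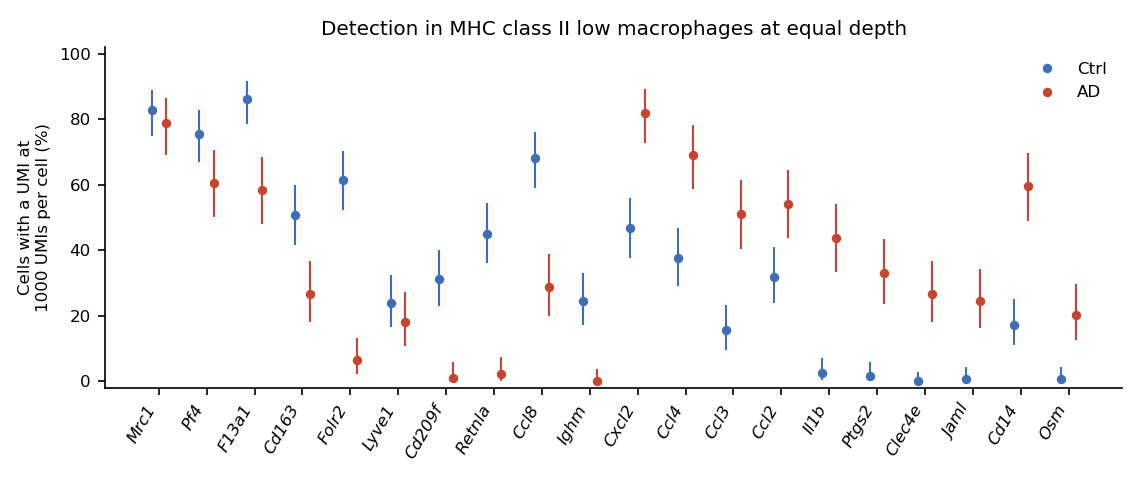
Share of members with at least 1 UMI of a gene (y axis, %) after each cell was thinned to 1000 UMIs, for 122 Ctrl and 94 AD cells, with exact 95% intervals of counting error as bars. Cxcl2, Il1b and Ptgs2 are found in more AD cells, Folr2 and Retnla in more Ctrl cells, and the intervals of Mrc1 overlap.

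Members of the AD library were not alike. Of 94 thinned AD cells, 41 had an Il1b UMI. Ptgs2 was found in 58.5% of these and in 13.2% of the other 53, and Clec4e in 39.0% and 17.0%. Cxcl2 was found in 92.7% and 73.6%. The chemokine Ccl8 and the resident genes Lyve1, Cd163, Mrc1, Pf4 and F13a1 went the other way in these thinned cells. Ccl8 was found in 14.6% of cells with Il1b and 39.6% of cells without, Lyve1 in 4.88% and 28.3%, and Cd163 in 17.1% and 34.0%. Mrc1 was found in 70.7% and 84.9%, Pf4 in 53.7% and 66.0%, and F13a1 in 48.8% and 66.0%. Jaml did not follow Il1b, at 24.4% and 24.5%. The 2 sets of cells came from 1 library, so their differences describe these cells and are not a comparison between animals. Before thinning, AD members with Il1b had a median of 7731 UMIs and those without 4037. In these unthinned cells Pf4 was found in 87.2% of cells with Il1b and 73.1% of those without, and F13a1 in 83.0% and 80.8%.

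**Figure D5:**
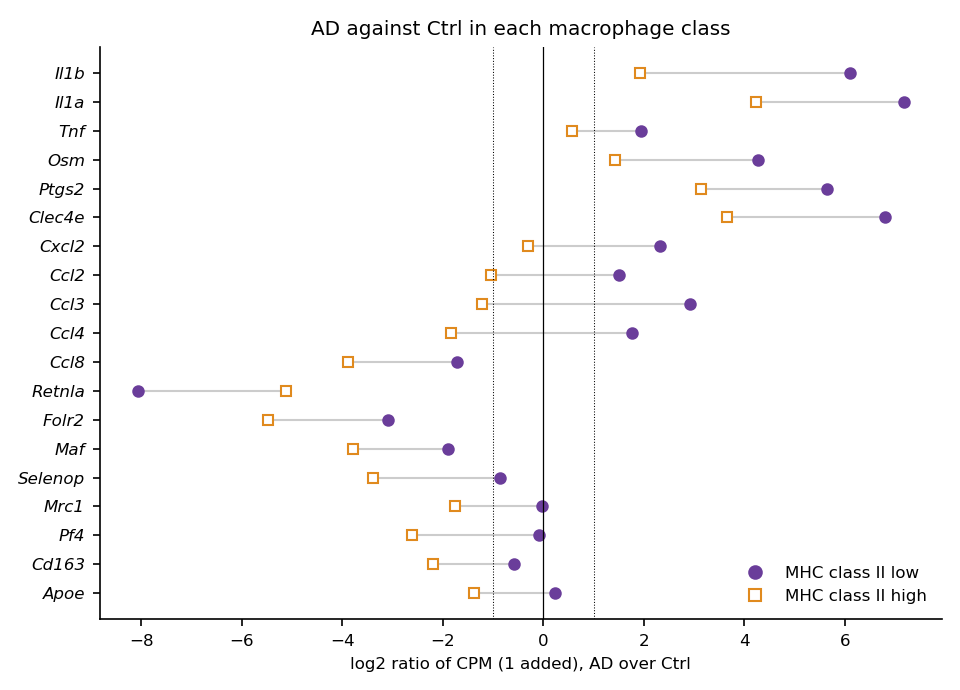
Log2 ratio of AD over Ctrl (x axis) for 19 genes, in MHC class II low macrophages (filled circles) and high macrophages (open squares), each from 1 library per condition. The circles of Ccl2, Ccl3 and Ccl4 lie above 0 and their squares below it.

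The same ratios were read in the high class, 219 Ctrl cells with a median of 4163 UMIs and 40 AD cells with a median of 11543. Ccl4 stood at 7443 CPM in Ctrl there and 2088 in AD, a ratio of −1.83 against 1.77 in the low class. The ratio of Cxcl2 was −0.30 in the high class and 2.32 in the low class. That of Il1b was 1.92 and 6.09, and that of Ptgs2 3.14 and 5.65. Mrc1 had a ratio of −1.76 in the high class and −0.03 in the low class, Pf4 −2.62 and −0.09, and Selenop −3.38 and −0.87. The difference between the classes was not tested, because each was 1 library per condition. The high class included cells with Langerhans cell genes such as Cd207, and the makeup of the class in each library was not resolved further.

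Between the classes within a library, 14 of 3018 compared genes (0.464%) were at least 2-fold higher in the low class in both libraries and 29 (0.961%) at least 2-fold lower. After thinning the counts were 77 and 73, and with below 0.25% against at least 1% they were 22 and 36. The cells were divided by MHC class II, so this is a description. Higher in the low class were Cd209d (log2 low over high 1.65 in Ctrl and 3.65 in AD), Fcna (2.01 and 2.72) and the neonatal Fc receptor gene Fcgrt (1.14 and 1.73). Lyve1 stood at 375 CPM in low and 167 in high Ctrl cells, and at 221 and 2.10 CPM in AD. C4b, a complement component, stood at 577 and 222 CPM in Ctrl and 259.8 and 8.39 CPM in AD. Lower were H2-DMa, which loads peptide on MHC class II (−2.95 and −3.06), the decoy receptor gene Il1r2 (−2.73 and −4.86) and Mfge8, a bridge to dying cells (−3.63 and −3.63). Ciita, the MHC class II transactivator, stood at 6.17 CPM in low and 62.7 in high Ctrl cells, and at 0 and 60.8 CPM in AD.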

How the data were processed

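Dorsal skin cells were prepared by 10x 3′ single-cell sequencing, 1 library per condition. The authors deposited UMI counts per gene and barcode (12598 Ctrl and 8778 AD barcodes, 125184653 and 76106062 UMIs, 33904 gene IDs). The matrix header names Cell Ranger 5.0.0, while the submitters' processing notes name Cell Ranger 3.1.0, Seurat 5.0 and mm10. The barcode strings shared by both libraries numbered 35, and none was a member.

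The counts were filtered and classed by the rule in the report with Python 3.11.15 and scanpy 1.11.5, summed over cells per library, scaled to CPM and compared as log2 ratios with 1 CPM added, for those genes that reached 50 CPM in Ctrl or in AD. A difference counted at 2-fold. No model was fitted. Intervals are Poisson, exact binomial or conditional binomial at 95%, and the interval code was tested on simulated counts. The members and lists (29, and 13 of other cells) were chosen with earlier results of these data known. Genes named were the rule's genes and markers, the 15 highest and 15 lowest ratios among genes at least as high in members as in other cells, from each list the 4 most abundant and the 4 with the largest ratio, the 8 at each end of low against high, and the top and zero markers of other cells. Others named in counts were chosen after their values were seen. A few genes that the rule names are not reported here. A fold against a library at 0 used 3 UMIs. Doublets were kept. Scrublet marked 395 Ctrl cells (3.47%, 1 member) and 0 AD cells, and why it marked none in AD was not tested. Its result is therefore no measure of doublets in AD.

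Summed CPM of the other marker lists were 57.0 in Ctrl and 97.8 in AD for T cells, 219 and 25.1 for dendritic cells (mostly Cd209a in Ctrl), 2296 and 1777 for Langerhans cells (Csf1r the most abundant), 18.5 and 12.6 for mast cells, 44.7 and 90.8 for neutrophils, 6.17 and 51.7 for endothelium, 52.4 and 14.0 for pericytes, 52.4 and 163 for erythroid cells, 7.71 and 2.79 for muscle, 54.0 and 72.6 for Schwann cells and melanocytes, and 299 and 5.59 for B cells (Ighm).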

Additional observations from a re-analysis of the deposited data

Results flagged for a closer look

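Ccl2, Ccl3 and Ccl4 had opposite directions in the 2 classes of macrophages. In the low class their log2 ratios of AD over Ctrl were 1.50, 2.92 and 1.77, and in the high class −1.04, −1.23 and −1.83. The high class stood at 1384 CPM of Ccl2 in Ctrl and 673 CPM in AD, and at 844 and 359 CPM of Ccl3. With 1 library per condition the difference was not tested.

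Outside the filter on genes and mitochondrial share, 10 Ctrl and 7 AD barcodes also met the marker rule. Of these, 3 in Ctrl and 1 in AD had over 6000 genes, and 7 and 6 had over 10% mitochondrial UMIs.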

How the results depend on the processing

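No paired analysis was possible because each condition had 1 library, and for the same reason no library could be left out. At a minimum of 100 CPM, 207 genes were higher and 267 lower in AD. With no minimum the counts were 2131 and 4081, and with cells thinned to 1000 UMIs 688 were higher and 763 lower. The Ctrl share of kept cells was 0.886% and the low share of Ctrl macrophages 29.2% with the limit at 0.25%, 1.42% and 46.8% at 1%, and 0.912% of kept cells with at least 10 C1q UMIs. Genes higher or lower in the low class than in the high class numbered 77 and 73 after thinning, and 22 were higher with 0.25% against 1%. Among named genes past 2-fold, ratios that changed sign were Mgst1 (0.52 as a mean of cells, 0.76 thinned, 0.19 without its highest cell), Atp6v0d2 (−0.20 thinned), Stmn1, Top2a and Ube2c (0.20, 0.76 and 1.02 with at least 10 C1q UMIs), and Ccl5 and Vdr (−0.61 and −0.23 over all deposited barcodes). Of 197 named ratios, those that moved beyond their interval with no such change of sign numbered 88 thinned, 49 as a mean of cells, 49 over all deposited barcodes, 31 with 10 CPM added, 22 without each gene's highest cell and 18 without the 6 Ctrl members with other cells' markers, and without the cells of the highest 5% of doublet scores the counts were 330 and 510. The causes were not tested.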

Other observations

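Among the genes lowest in AD members, 11 known from lipid synthesis, sebaceous cells or keratinocytes were looked at together after their values were seen. They are not a fixed list, and the 23 lipid handling genes had a median ratio of −0.05. The 11 included Elovl6, Scd1, Krt79, Fa2h, Akr1c18, Fgfbp1, Far2, Apoc1, Cers4 and Stfa3. Scd1, the desaturase of fatty acids, stood at 1098 CPM in Ctrl members and 4.19 in AD members (3 UMIs, ratio interval −10.31 to −6.48). Most of their Ctrl UMIs were in 4 cells, and for 8 of the 11 genes the highest cell was the same cell, with 22890 UMIs and 30 UMIs of C1q. In that cell 0.489% of UMIs were from markers of other cells, under the 1% limit. Stfa3, a stefin, had a ratio of −5.26 that was −0.18 without the members over 1%.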
